A study of Mus musculus with 5 samples.

Results

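The genes described here encode integrins, laminins and the proteins that join laminin to the rest of the basement membrane and to the cell. They were given as a list of 33 names: 11 integrin alpha chains, 6 integrin beta chains, 10 laminin chains, the linkers Nid1, Nid2, Hspg2 and Agrn, the laminin receptor Dag1, and Fn1. All 33 are among the 21938 protein-coding genes of GENCODE M21 on chromosomes 1 to 19, X and Y of GRCm38, the assembly that mm10 names. CUT&RUN-seq, in which an antibody directs a nuclease to cut out the DNA beside its target, was run on freshly isolated muscle stem cells (MuSCs) of mouse muscle. The peak lists came from 4 JunB libraries, 3 labelled young and 1 labelled aged, and from 1 library for H3K27ac, an acetylation of histone H3 that marks active regulatory DNA. Neither strain, age in months nor the number of animals per library is given in the labels, and the H3K27ac library carries no age; the study's methods also tie it to a reference epigenome project. For each library, a gene was counted as having a promoter peak when the edge of a peak lay within 3 kb of any of its transcription start sites (TSSs), and as having a distal peak when an edge lay farther away but within 50 kb.

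Integrins are receptors made of an alpha and a beta chain that hold a cell to its matrix. Laminins are trimers of an alpha, a beta and a gamma chain, and nidogens and perlecan tie them into the sheet of the basement membrane that wraps each muscle fibre. MuSCs lie between that sheet and the fibre, and their adhesion to laminin and fibronectin is part of the niche in which they stay quiescent or divide. JunB is a subunit of AP-1, a dimeric factor that binds the motif TGACTCA, which reads TGAGTCA on the other strand.

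A few facts about the libraries bear on every count. The lists held 9534, 4884 and 3863 peaks in young replicates 1, 2 and 3, 14123 in the aged library and 39865 for H3K27ac, and they had not passed the same threshold: the lowest −log10 p was 3.01, 5.33, 5.22, 3.01 and 3.96 in that order. Peak lists carry no reads and thus no depth. The rank of a peak is given as a percentile, the share of peaks in its own library with an equal or lower −log10 p. The labels name young and aged mice while the series' design text names 2 treatments for the same JunB libraries, and in a supplementary peak sheet, held in part, the peaks headed young were those of the deposited aged library and the peaks headed aged included those of young replicates 1 and 3. The names of the peaks in young replicate 1 also carry the letters gfp, while the methods sort MuSCs of young and aged mice by surface proteins and use GFP for the Junb knockout mice and their controls. The labels were followed throughout, so every young and aged value rests on them. With 1 aged library, no test between ages was possible.

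As a check of the cell type, 5 of 8 MuSC markers (Myod1, Vcam1, Cdh15, Chodl and Sdc4) had an H3K27ac promoter peak and all 8 had a distal one, while Pax7 and Myf5 had distal peaks alone. The methods sort MuSCs of young and aged mice for Vcam1 and against CD45, CD31 and SCA1, the products of Ptprc, Pecam1 and Ly6a, but do not say how the cells of the H3K27ac library were sorted. Of the markers of other cells, 2 of 4 endothelial genes (Pecam1 and Tek), 1 of 4 leukocyte genes (Csf1r), 1 of 4 fibro-adipogenic genes (Dcn) and 1 of 4 myofibre genes (Myh1) had an H3K27ac promoter peak. Distal H3K27ac peaks were found at 3 of 4 endothelial, 1 of 4 leukocyte, 3 of 4 fibro-adipogenic and 3 of 4 myofibre genes. Over all protein-coding genes, 49.8% had an H3K27ac promoter peak and 70.9% a distal one. The endothelial promoter count and the distal counts of 3 of 4 thus lay near the shares of all genes. Lists this short do not settle the cell type. What share of the signal comes from other cells was not tested.

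JunB peaks lay mostly away from the promoters of the integrin and laminin genes. A promoter peak was found at 3, 4 and 1 of the 33 members in young replicates 1, 2 and 3 (mean 2.67 ± 1.53 SD, n = 3) and at 10 in aged MuSCs. Over all protein-coding genes the shares with a promoter peak were 11%, 7.74%, 5.91% and 23.9%, against 9.09%, 12.1%, 3.03% and 30.3% of the members. The share of the members therefore lay close to that of all genes in each JunB library. Distal peaks were found at 19, 14 and 13 members in the young libraries (15.3 ± 3.21 SD, n = 3) and at 27 in the aged one, which is 57.6%, 42.4%, 39.4% and 81.8% of the members beside 35.3%, 22.8%, 19.7% and 50.6% of all genes. For H3K27ac, 23 members (69.7%) had a promoter peak beside 49.8% of all genes, and 30 (90.9%) had a distal peak beside 70.9%. In all 5 libraries the share with a distal peak was higher among the members than among all genes.

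**Figure D1:**
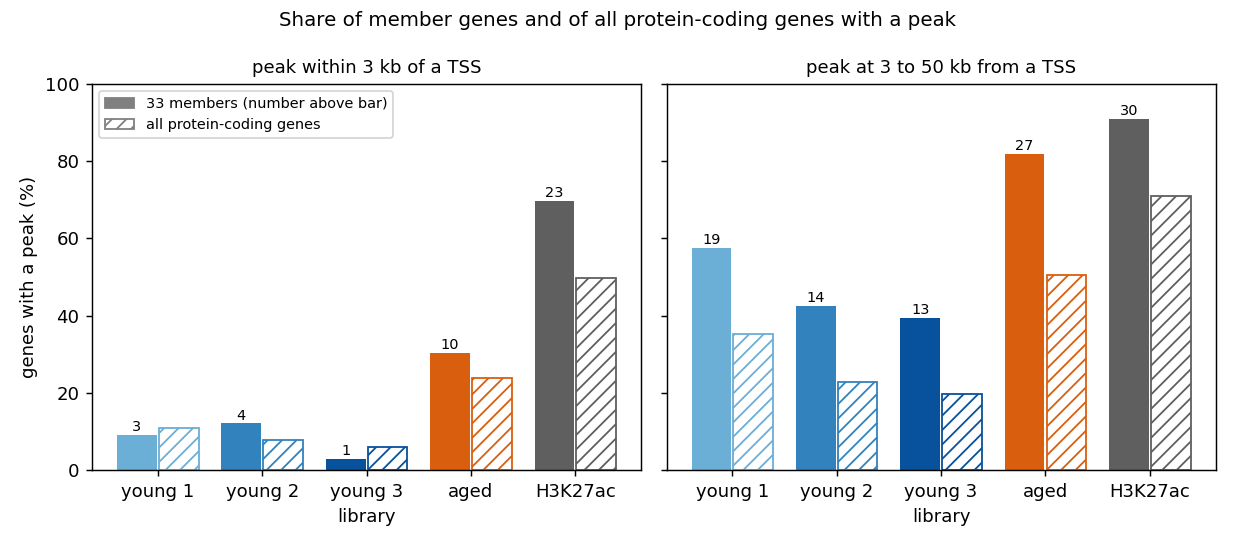
Percent of the 33 members (filled bars, number of genes above) and of all 21938 protein-coding genes (hatched bars) with a peak within 3 kb of a TSS (left) or at 3 to 50 kb (right), by library. The filled and hatched bars are close for JunB promoter peaks, and the filled bar is the higher one in all 5 libraries for distal peaks.

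These genes are long and have scattered start sites, which widens the window in which a peak is counted. Their median length was 80.8 kb with 5 TSSs spread over 49.0 kb, whereas the median protein-coding gene measured 17.4 kb with 3 TSSs over 2.82 kb. When distance was taken from the 5′ end of the gene alone, a distal peak was found at 16, 10 and 10 members in the young libraries, 23 in the aged library and 26 for H3K27ac, beside 31.9%, 20.4%, 17.5%, 46.7% and 68.1% of all genes. When a peak was linked to the gene of its nearest protein-coding TSS only, 12, 7 and 7 members kept a young distal peak, beside 12.9%, 7.33% and 6.25% of all genes. As shares of the 33 members, the counts in both settings stayed above the shares of all genes. What part of the distal difference comes from the wider window was not tested.

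**Figure D2:**
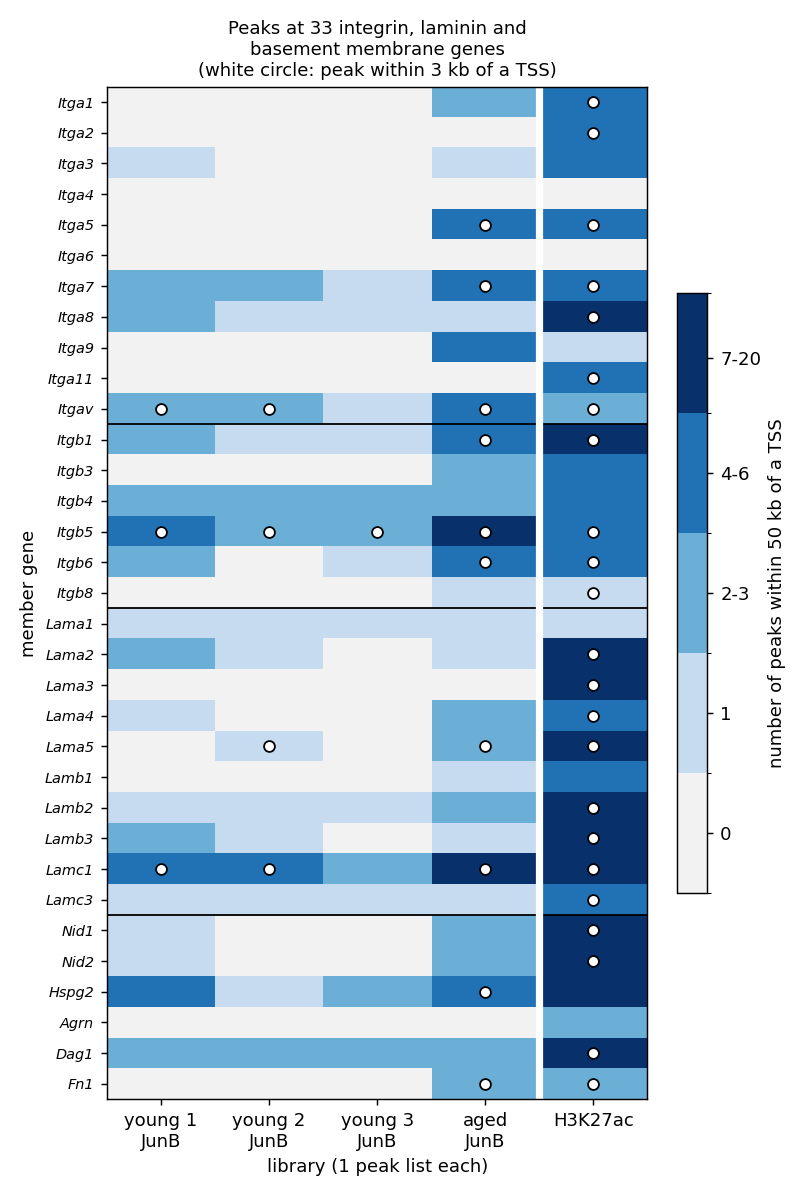
Number of peaks within 50 kb of a TSS at each of the 33 members (rows, grouped as alpha integrins, beta integrins, laminin chains, and linkers with Dag1 and Fn1) in each of the 5 libraries (columns). White circles mark a peak within 3 kb of a TSS: Itgb5 has one in all 4 JunB libraries, and 6 genes have no JunB peak in any of them.

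Merged where they overlapped, the JunB peaks at the members formed 96 regions, 13 at promoters and 83 distal, and none was linked to more than 1 member. Of the distal regions, 36 lay inside the member gene, 21 lay within 3 kb of a TSS of another protein-coding gene, and 47 had the member as their nearest protein-coding TSS. A peak in all 4 JunB libraries was found in 15 of the 96 (15.6%), close to the 14.4% of all JunB regions within 50 kb of a protein-coding gene. The aged library alone held 50 of them (52.1% beside 46.4%) and the young libraries alone 19 (19.8% beside 21.6%).

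Among the beta integrins, Itgb5, whose product pairs with the alpha v chain to bind vitronectin, was the only member with a promoter peak in all 4 JunB libraries, as 4.36% of all genes had. The gene (ENSMUSG00000022817.15) spans chr16:33829665-33949338 on the plus strand. Its shared promoter region, chr16:33891516-33892276, did not lie at the 5′ end of the gene but over the start of an internal transcript, 62.3 kb downstream. The fold enrichment there was 10.1, 7.56 and 8.29 in young replicates 1 to 3 and 7.60 for the aged one, with percentiles of 86.0, 52.6, 49.8 and 89.1. The summits of the 4 peaks fell within 27 bp of each other, and the region overlapped an H3K27ac peak of fold 4.14. When distance was measured from the 5′ end alone, Itgb5 had no promoter peak in these libraries and no member had one in young replicate 3.

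A second region of Itgb5, in an intron at chr16:33916563-33917280, ranked higher. It lay 5.21 kb from the TSS of a non-coding transcript and 86.9 kb from the 5′ end of the gene. Its fold enrichment was 10.8, 10.6 and 12.5 in young and 8.42 in aged MuSCs, at percentiles of 88.5, 78.7, 84.9 and 91.0, with the summits 42 bp apart and an H3K27ac peak of fold 4.06 over it. The sequence below, on the plus strand of GRCm38, runs from 20 bases before the centre of the motif to 20 bases past the aged summit, and the capitals mark the AP-1 motif, 58, 53, 47 and 89 bp from the summits of young 1, 2, 3 and aged.
Itgb5 intron, chr16:33916765-33916894: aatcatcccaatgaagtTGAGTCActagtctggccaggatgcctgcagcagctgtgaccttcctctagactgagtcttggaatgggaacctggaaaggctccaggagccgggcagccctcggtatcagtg
The aged library held further Itgb5 peaks that no young library had, among them one at 410 bp from the TSS of a non-coding transcript and one 4.59 kb past a TSS at the 3′ side of the gene (fold 6.74, percentile 77.0). The 2 intron regions that were found in young replicate 1 alone, 18.6 and 19.6 kb from a TSS, consisted wholly of repeat-masked bases.

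Itgb1, the beta chain of most laminin and collagen receptors, had a distal peak in every JunB library, yet no single region of it was shared by all 4. A region 18.6 kb upstream was found in young replicates 1 and 2 (fold 7.77 and 7.30, percentiles 73.6 and 33.9), and a region over an untranslated exon in young replicates 1 and 3 (fold 5.81 and 5.53). In the aged library the peaks lay elsewhere: 48 bp upstream of the 5′ end (fold 4.32, percentile 34.6, under an H3K27ac peak of percentile 89.1), 38.7 and 31.1 kb upstream, and in an intron. In all, 12 members had distal peaks in all 4 JunB libraries (36.4% of the members beside 15.6% of all genes), and Itgb1 was the only one of them without a region common to the 4. The upstream region of young replicates 1 and 2 held the motif, shown in capitals.
Itgb1 upstream, chr8:128666848-128667014: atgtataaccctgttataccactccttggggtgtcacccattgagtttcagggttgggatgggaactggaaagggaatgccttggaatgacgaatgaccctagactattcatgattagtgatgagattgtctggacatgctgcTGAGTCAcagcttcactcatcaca

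Itgb4, the partner of the alpha 6 chain in hemidesmosomes, had 2 regions in all 4 JunB libraries, but both lay downstream at the promoters of other genes. The region at H3f3b lay 30.9 kb from an internal TSS of Itgb4 and 49.2 kb from its 5′ end, and that at Unk 37.3 and 55.5 kb. The one at Unk overlapped an H3K27ac peak of percentile 99.2, and no H3K27ac peak was found at a TSS of Itgb4 itself. Itgb6, which takes part in releasing active TGF-beta from its latent form, had an intron region in young replicates 1 and 3 (fold 6.90 and 7.86) and an aged promoter peak 1.12 kb into the gene, with a fold of 6.35 and a percentile of 78.5. Itgb3 and Itgb8, which also pair with the alpha v chain, had aged peaks only: 2 at Itgb3 (fold 4.99 and 3.80) and 1 at Itgb8, 47.1 kb upstream, wholly in repeat-masked bases and at percentile 4.51.

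Among the alpha chains, Itga7, the laminin receptor chain typical of skeletal muscle, had the strongest recurrent JunB signal, with a mean percentile of 80.7 for its best peak over the 4 libraries. That peak, at chr10:128921682-128922473, had a fold enrichment of 7.11, 8.20 and 7.44 in young and 6.37 in aged MuSCs. It lay 11.3 kb upstream of Itga7 and inside the promoters of Bloc1s1 and Rdh5. A region 12.3 kb past a TSS on the 3′ side of the gene was shared by all JunB libraries but young replicate 3, without H3K27ac. Nearer the gene, the aged library alone had a peak 2.05 kb upstream of the 5′ end (fold 4.49, percentile 32.4), outside any H3K27ac peak. That aged peak held the motif 90 bp from its summit, in capitals below.
Itga7 upstream, chr10:128931590-128931720: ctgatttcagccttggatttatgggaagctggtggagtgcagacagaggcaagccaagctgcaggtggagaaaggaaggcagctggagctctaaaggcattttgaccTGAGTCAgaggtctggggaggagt

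Itgav, the alpha v chain shared by several fibronectin and vitronectin receptors, had a promoter peak in 3 JunB libraries, young replicate 3 being the exception. The region, at chr2:83725203-83725976 in the first part of the gene, 648 bp from a TSS, had a fold enrichment of 5.63 and 7.41 in young and 5.64 in aged MuSCs, at percentiles of 59.6, 53.8 and 73.3, and overlapped an H3K27ac peak. The motif lay 70, 111 and 116 bp from the 3 summits.
Itgav promoter, chr2:83725580-83725736: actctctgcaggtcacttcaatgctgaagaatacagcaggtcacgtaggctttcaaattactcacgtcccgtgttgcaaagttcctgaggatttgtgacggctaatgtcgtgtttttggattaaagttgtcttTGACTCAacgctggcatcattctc
A second Itgav region, in all 4 libraries at percentiles of 80.1, 57.0, 44.4 and 91.7, sat at the promoter of the neighbouring gene Fam171b.

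Itga5, the alpha chain of the main fibronectin receptor, had no JunB peak in any young library and 5 in the aged one. Its aged promoter peak (fold 4.67, percentile 41.0) lay 1.89 kb from the TSS of an internal non-coding transcript and 7.95 kb from the 5′ end, and 3 of the others lay 3.92, 11.3 and 15.2 kb upstream, the middle one at a fold of 5.84. Itga9, a chain that binds tenascin and other ligands, likewise had 5 aged peaks, all distal and none with a fold above 5.28. Itga1, a collagen receptor chain, had 2 aged peaks, both in introns. The nearer to a TSS lay at the promoter of Pelo, and the other lay wholly in repeat-masked bases. Itga8, the nephronectin receptor chain, had a region 23.4 kb upstream in all 4 libraries, at a fold enrichment of 4.98, 8.20 and 6.08 in young and 5.71 in aged MuSCs, under an H3K27ac peak of percentile 87.2. Itga3, another laminin receptor chain, had 1 region, 8.93 kb upstream, in young replicate 1 and the aged library (percentiles 24.9 and 34.5). The collagen receptor chains Itga2 and Itga11, the fibronectin and Vcam1 receptor chain Itga4 and the laminin receptor chain Itga6 had no JunB peak within 50 kb in any library, and Itga4 and Itga6 had no H3K27ac peak there either.

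Lamc1 had the highest mean percentile of its best JunB peak among the members, although the best peak of Lama1 ranked higher in 2 of the lists, aged and young replicate 1. It encodes the gamma chain found in most laminins, and the gene (ENSMUSG00000026478.14) spans chr1:153218922-153332786 on the minus strand. That mean over the 4 JunB libraries was 97.6, and the peak, in an intron at chr1:153266448-153267079, ranked at 98.4, 97.4 and 96.9 in young and 97.6 in aged MuSCs. Its fold enrichment was 20.5, 20.4, 18.5 and 10.9, so the 3 young values lay close together and all above the aged one. Fold enrichment is set against the background of its own library, whose median over all peaks was 5.20, 7.74 and 8.11 in young and 4.93 in aged MuSCs. A second intron region, chr1:153304676-153305115, had folds of 9.17, 13.0, 13.6 and 8.56 and percentiles of 88.9, 90.0, 90.5 and 95.4. The first overlapped a low H3K27ac peak (percentile 25.7) and the second none. Both held the motif once, 181, 182, 197 and 150 bp from the summits of young 1, 2, 3 and aged in the first and 147, 63, 136 and 163 bp in the second.
Lamc1 intron, first region, chr1:153266706-153266896: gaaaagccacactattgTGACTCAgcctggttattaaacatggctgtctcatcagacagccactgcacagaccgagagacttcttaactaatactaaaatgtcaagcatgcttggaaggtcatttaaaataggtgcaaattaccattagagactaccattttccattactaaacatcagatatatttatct
Lamc1 intron, second region, chr1:153304709-153304912: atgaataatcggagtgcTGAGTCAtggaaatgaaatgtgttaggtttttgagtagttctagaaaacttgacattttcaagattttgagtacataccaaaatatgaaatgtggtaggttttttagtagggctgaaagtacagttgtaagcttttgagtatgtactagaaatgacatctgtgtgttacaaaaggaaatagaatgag

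At the 5′ end of Lamc1, a region that began 243 bp upstream, chr1:153333029-153334184, had peaks in the JunB libraries other than young replicate 3, with a fold enrichment of 6.22, 7.65 and 6.76 and percentiles of 67.5, 56.8 and 88.7. It overlapped an H3K27ac peak of percentile 11.3 and held the motif at 2 places, the nearer one 123 bp from the aged summit.
Lamc1 upstream, chr1:153333709-153333872: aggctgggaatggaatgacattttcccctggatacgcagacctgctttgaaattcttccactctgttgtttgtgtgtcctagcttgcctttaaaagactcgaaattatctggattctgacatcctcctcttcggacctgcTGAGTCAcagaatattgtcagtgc
A further intron region, 14.7 kb from a TSS, was shared by the same 3 libraries, and a region near an internal TSS, 106 kb from the 5′ end, by young replicate 1 and the aged library. Lamc1 also had 16 H3K27ac peaks within 50 kb, 6 of them within 3 kb of a TSS.

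**Figure D3:**
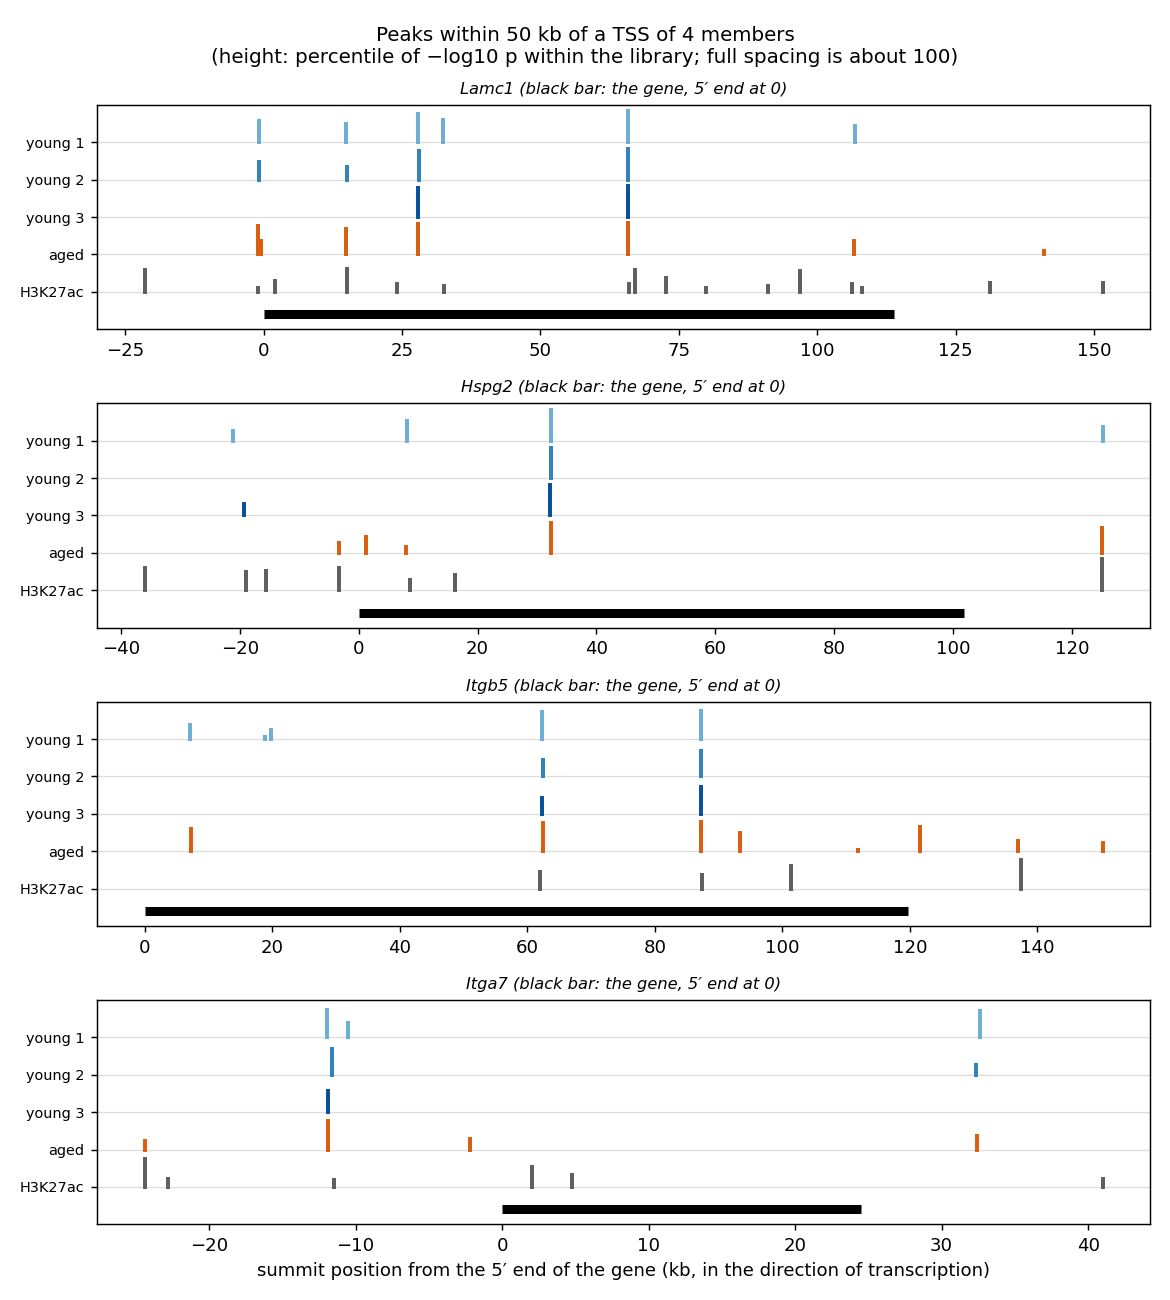
Summits of all peaks within 50 kb of a TSS of Lamc1, Hspg2, Itgb5 and Itga7, by distance from the 5′ end of the gene in kb, with 1 line per library. The height of a tick is the percentile of the peak's −log10 p in its library. Lamc1 has 2 columns of ticks through all 4 JunB lines inside the gene, Itgb5 has 2, Hspg2 has 1, and the column of Itga7 lies upstream of it.

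The partners of Lamc1 in the muscle laminins showed less. Lama2, the alpha chain of the muscle fibre basement membrane, had an intron region in all JunB libraries but young replicate 3 (fold 7.36, 6.24 and 7.44; percentiles 70.9, 16.0 and 83.9), 7.33 kb from the TSS of an internal transcript but 623 kb from the 5′ end of this gene of 640 kb. Its motif lay 166, 84 and 132 bp from the summits.
Lama2 intron, chr10:26995983-26996155: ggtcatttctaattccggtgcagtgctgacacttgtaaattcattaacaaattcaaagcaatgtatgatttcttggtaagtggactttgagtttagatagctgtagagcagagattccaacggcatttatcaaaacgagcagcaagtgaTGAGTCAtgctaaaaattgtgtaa
Lamb1 had a single JunB peak, in the aged library, at percentile 3.84. Lamb2, the beta chain enriched at the neuromuscular synapse, had a region in all 4 libraries (percentiles 86.6, 85.9, 30.2 and 86.4). It lay downstream at the promoter of Qars, 18.8 kb from an internal TSS of Lamb2 and 27.9 kb from its 5′ end. Lama4 and Lama5, the alpha chains of vessels and of many mature basement membranes, had mostly aged peaks. At Lama5 the aged promoter peak, 1.72 kb upstream at percentile 2.29, and the promoter peak of young replicate 2, 2.59 kb upstream at percentile 52.4, did not overlap. Lamc3 had 1 region in all 4 libraries, downstream of the gene at the promoter of Aif1l. It lay 23.5 kb from an internal TSS of Lamc3 and 61.2 kb from its 5′ end. Lamb3, a chain of epithelial laminin, had regions in young replicate 1 and, once, young replicate 2, and a separate aged peak. No Lamb3 region had Lamb3 as its nearest protein-coding TSS. The aged peak lay at the promoter of A130010J15Rik. The regions 29.4 and 10.8 kb from a TSS lay at the promoter of Hsd11b1. The region at 19.9 kb, nearest to Hsd11b1, held 15 copies of TTAGGG in 101 bp around its summit. Lama3, the partner chain of Lamb3, had no JunB peak within 50 kb.

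Lama1, the alpha chain of embryonic laminin, had 1 JunB region, in an intron at chr17:67741252-67741627, with fold enrichments of 26.7, 14.1 and 12.0 in young and 17.3 in aged MuSCs. Percentiles of 99.3, 86.5, 76.8 and 99.4 put it among the top peaks of young replicate 1 and of the aged library. It also overlapped the only H3K27ac peak of Lama1 within 50 kb, at percentile 98.1. Repeat-masked bases made up 67.8% of the region, beside a median of 8.78% over the member regions. No AP-1 motif was found in it, and the 101 bp around its aged summit held 10 copies of TTAGGG, counted on either strand. The part of the repeat in this signal was not tested, and no other member region in all 4 libraries had over 50% of its bases masked.

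Of the linkers, Hspg2, which encodes perlecan, stood next to Lamc1 in rank, with a mean percentile of 95.6 for its best peak. The gene (ENSMUSG00000028763.17) spans chr4:137468769-137570630 on the plus strand, and that peak lay over a coding exon 32.1 kb into it, at chr4:137500869-137501300. The fold enrichment was 20.1, 17.7 and 17.1 in the 3 young libraries and 8.94 in aged MuSCs. The percentile was 97.7 in young replicate 1 and at least 94.8 in the others, and no H3K27ac peak overlapped. The exon ended at position 137501194, and the motif, TGAGTCA, began at 137501196, with 1 base between them. The motif thus stood in the first bases of the intron, at the splice site. It lay 131, 143, 184 and 124 bp from the summits of young 1, 2, 3 and aged.
Hspg2 exon and intron, chr4:137501055-137501219: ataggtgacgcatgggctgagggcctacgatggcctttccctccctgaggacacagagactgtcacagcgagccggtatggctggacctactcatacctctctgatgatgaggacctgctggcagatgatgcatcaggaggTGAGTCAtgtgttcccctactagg
An aged peak 1.12 kb from a TSS of Hspg2 (fold 4.32, percentile 49.7) had the motif 14 bp from its summit, the shortest such distance among the member regions. No H3K27ac peak lay over it or over any TSS of Hspg2.
Hspg2 promoter, chr4:137470021-137470075: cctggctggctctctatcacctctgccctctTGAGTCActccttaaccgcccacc

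Dag1, which encodes dystroglycan, the laminin receptor of the dystrophin complex, had 2 regions in all 4 JunB libraries. One lay 16.3 kb upstream under an H3K27ac peak of percentile 87.9, at a fold enrichment of 7.33, 9.55 and 6.95 in young and 5.71 in aged MuSCs, and held the motif. The other lay 41.9 kb upstream at the promoters of Rhoa and Tcta.
Nid1 and Nid2, the nidogens, had no peak in young replicates 2 and 3. Their best peaks were aged ones, an intron peak of Nid1 3.55 kb from a TSS (fold 7.01, percentile 84.1; 4.63 in young replicate 1) and a peak 3.05 kb upstream of Nid2 (fold 5.78, percentile 70.0). Agrn, which encodes agrin, the organiser of the neuromuscular synapse, had no JunB peak within 50 kb and 2 H3K27ac peaks. Fn1, the gene of fibronectin, had 2 peaks, both aged, at 449 bp from a TSS (fold 4.33, percentile 29.7) and 33.9 kb away at the promoter of Atic (percentile 2.80).

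Between the ages, 6 members had an aged promoter peak and no young one: Itga5, Itga7, Itgb1, Itgb6, Hspg2 and Fn1 (18.2% of the members beside 13.1% of all genes). The reverse, a young promoter peak without an aged one, was found at no member and at 1.94% of all genes. The aged list is the longest JunB list, and 5 of these 6 peaks ranked between percentiles 29.7 and 49.7, with Itgb6 at 78.5. One of the 6, at Itgb1, overlapped an H3K27ac peak. When each JunB library was held to its 3863 strongest peaks, the size of the smallest list, 4 members had an aged promoter peak beside 8.82% of all genes, and Itgb6 alone had one without a young counterpart. At that size distal peaks were found at 14, 12 and 13 members in young and 11 in aged MuSCs, beside 18.8%, 19.3%, 19.7% and 21.8% of all genes. So the higher aged count of distal peaks was no longer seen at equal list length. In all, 6 members had no JunB peak within 50 kb in any library (18.2% beside 35.5% of all genes): the alpha chains Itga2, Itga4, Itga6 and Itga11, with Lama3 and Agrn. Past the 50 kb limit, Lama3 had 1 JunB peak inside the gene in each JunB library except young replicate 3, Itga11 had 1 in young replicate 3, and Lama2 had 1 or 2 in each library.

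**Figure D4:**
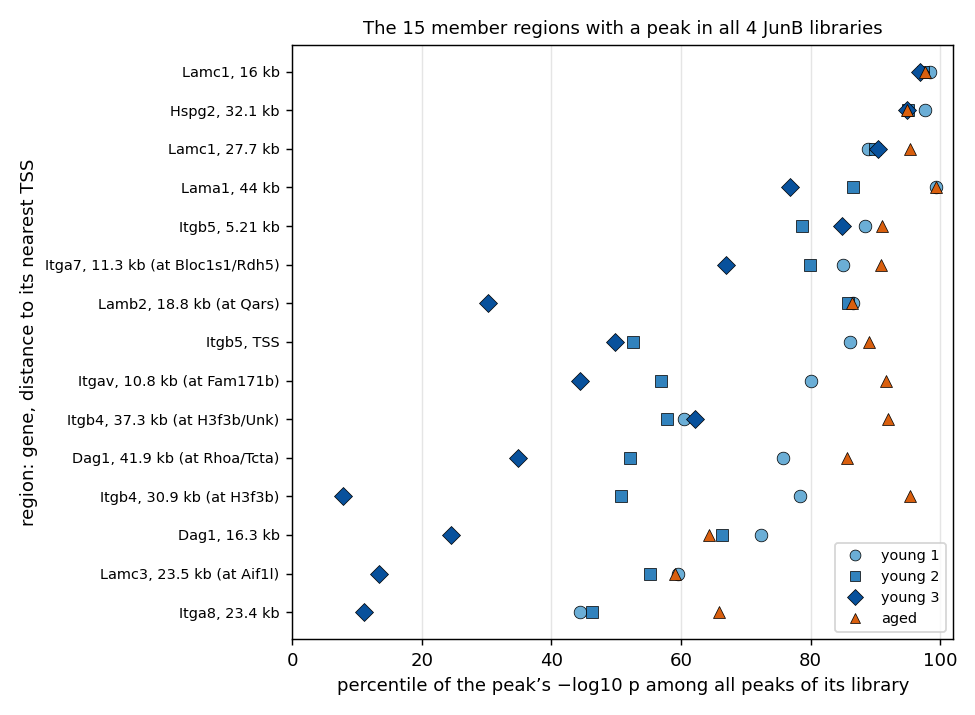
Percentile of −log10 p in young 1, 2, 3 and aged for the 15 member regions with a peak in all 4 JunB libraries, ordered by their mean. The Lamc1 intron region at 16.0 kb and the Hspg2 region at 32.1 kb from their nearest TSS have all 4 points above 94, while young 3 has the lowest point of the 4 at most of the other regions, Lamb2, Lamc3 and Itga8 among them.

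Of the 15 regions with a peak in all 4 libraries, 14 were distal, at 11 members. By the midpoint of the region, 6 of the 15 lay inside the member gene, 5 in introns and 1 over the coding exon of Hspg2. At the Itgb5 promoter region, counted as intronic, all 4 summits lay in an untranslated exon. Of the rest, 7 lay at promoters of other genes, and those upstream of Itga8 and nearest to Dag1 lay between genes. The summits of the 4 libraries were between 20 and 334 bp apart, with a median of 56 bp. The aged percentile was the highest of the 4 at 10 of the 15, but the aged fold enrichment was the highest at 1 and the lowest at 8, so the order of young and aged depends on the scale and no direction is drawn from it.

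H3K27ac overlapped 37 of the 96 member regions (38.5%, exact binomial 95% interval 28.8 to 49.0%, counting error only), below the 48.8% of all JunB regions within 50 kb of a protein-coding gene. Split by place, it overlapped 7 of the 13 promoter regions (65.7% over all genes) and 36.1% of the distal ones (36.4% over all genes), so the distal shares were alike. Of the regions in all 4 JunB libraries it overlapped 9 of 15 (60.0%), beside 70.7% over all genes. Among the 23 members with an H3K27ac promoter peak, 9 had an aged JunB promoter peak (39.1% beside 42.4% of all such genes). The members with the most H3K27ac peaks within 50 kb were Itga8 (17), Lamc1 (16), Lamb3 (13) and Lama2 (10), followed by Lamb2 and Nid2 with 9 each. The median was 5 over the members and 3 over all protein-coding genes. In the same order, the TSSs of these 6 genes spanned 169, 104, 113, 631, 9.14 and 54.0 kb, beside a member median of 49.0 kb. The part of the wider window in these counts was not tested. At Lamb2 the strongest promoter mark had a fold of 6.06 and a percentile of 95.2, the highest promoter percentile of the members. In all, 10 members, Itgb4, Lamb1, Hspg2 and Agrn among them, had no H3K27ac promoter peak.

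The AP-1 motif was more frequent in regions that recurred between libraries. It stood in 33 of the 96 member regions (34.4%, beside 26.7% of all JunB regions near protein-coding genes). By the number of JunB libraries with a peak, the share was 23.1% of 65 regions with 1, 27.3% of 11 with 2, 60.0% of 5 with 3 and 80.0% of 15 with 4, where all protein-coding genes had 15.2%, 35.7%, 44.9% and 57.5%. The regions also grow wider along that order, from a median of 278 to 632 bp at the members and from 291 to 622 bp over all genes, and a wider region has more room for a motif. The part of width was not tested.

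**Figure D5:**
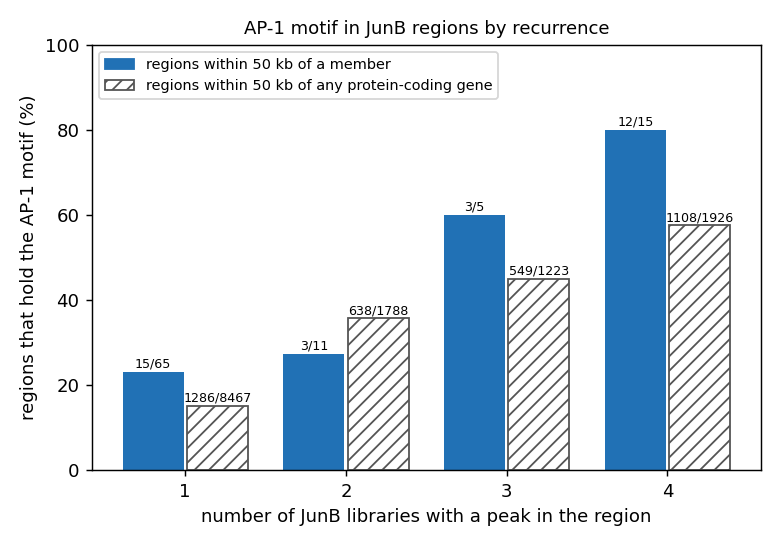
Percent of JunB regions that hold TGACTCA on either strand, by the number of JunB libraries with a peak in the region, at the members (filled) and at all protein-coding genes (hatched), with the counts above the bars. Both rise from 1 library to 4, to 12 of 15 at the members and 1108 of 1926 over all genes.

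The motif rarely stood at the summit. Within 50 bp of it, the motif was found in 1 of 44, 0 of 23, 2 of 18 and 2 of 78 member peaks of young 1, 2, 3 and aged (2.27%, 0%, 11.1% and 2.56%), beside 5.24%, 5.87%, 7.21% and 3.59% of all peaks of each library. The 0 of 23 allows a share of up to 14.8% (exact binomial 95% limit). In windows of 101 bp centred 500 bp to each side of the summits, the motif stood in 1 of 88, 0 of 46, 0 of 36 and 4 of 156 at the members (1.14%, 0%, 0% and 2.56%). Over all peaks the shares in such windows were 1.35%, 1.52%, 1.76% and 1.56%. At the members, the summit share was thus above the flanking one in young 1 and 3 but not in young 2 or aged. These member shares rest on very few motifs, so no difference between libraries is drawn from them. In the 12 member regions with the motif and a peak in all 4 libraries, its median distance from the summit was 174, 144, 161 and 156 bp in that order, and it was over 50 bp at all 12 in young 1, young 2 and aged and at 10 in young 3. Over all protein-coding genes, the medians in such regions were 144, 146, 142 and 152 bp, so an offset of like size was seen there. The H3K27ac peaks at the members held the motif at 4 of 190 summits, near its share of 1.80% over all H3K27ac peaks.

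Beside the members, genes that act with them were read in the same way, and each count stands against the shares of all protein-coding genes given above (promoter 11%, 7.74%, 5.91%, 23.9% and 49.8%, distal 35.3%, 22.8%, 19.7%, 50.6% and 70.9% in young 1, 2, 3, aged and H3K27ac). Of 20 cytoplasmic adaptors and kinases that link integrins to actin, such as Vcl (vinculin) and Tln1 (talin), 6, 3, 5, 13 and 15 had a promoter peak and 14, 13, 10, 17 and 20 a distal one, in that order. Zyx, Tns1 and Lims1 had a JunB promoter peak in all 4 libraries. Of 18 genes of collagen IV and other basement membrane proteins, 2, 4, 2, 4 and 12 had a promoter peak and 7, 6, 6, 12 and 15 a distal one, and Col18a1 was among those with a JunB promoter peak in all 4. Of 16 genes of the dystrophin complex and dystroglycan glycosylation, 4, 4, 3, 7 and 13 had a promoter peak and 8, 6, 4, 10 and 14 a distal one, with Dmd and Sspn among those with a JunB promoter peak in all 4. A list of 9 integrins outside the members, most of them leukocyte or platelet chains but with the collagen receptor chain Itga10, had a promoter peak at 1 gene, Itga2b, in each of the 5 libraries and distal peaks at 5, 2, 2, 7 and 8.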

How the data were processed

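The data were CUT&RUN-seq peak lists of MuSCs, 1 per library. The authors aligned reads to mm10 with Bowtie2 and called peaks with MACS2 per library. Versions and a control library are not given in the sources used here. The deposited lists give for each peak the fold enrichment, a ratio of pileup to local background, and −log10 values. From the deposited lists, −log10 p ranked the peaks and −log10 q filtered them in an alternative. A deposited score was not used.

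Peaks were linked to genes with GENCODE M21 by the distance from a TSS to the nearest edge, within 3 kb or at 3 to 50 kb. JunB peaks of the 4 libraries were merged where they overlapped or touched, and overlap with H3K27ac needed 1 bp. TGACTCA was sought on both strands within 50 bp of summits and in whole regions. The search of whole regions and the equal list length were chosen after seeing the data. Sequences were read from GRCm38. Linking and merging were tested on simulated data, and the motif scan was not. Python 3.11.15, numpy 2.4.6, scipy 1.17.1, pysam 0.24.0 and matplotlib 3.10.9 were used.

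Samples were grouped by their labels, and young values are given as mean ± SD where averaged. No test was run: with 1 aged library the ages have no replicate check, and members are set beside the share of all protein-coding genes. The replicates are labelled as biological, with no animals named. Alternatives covered the windows, the TSSs used, the peak thresholds, the link to genes, H3K27ac overlap, the motif window and leaving out each young library. All 33 members were accounted for, and those described at length had a promoter peak in all 4 JunB libraries or in the aged one alone, a high mean percentile, many H3K27ac peaks or no JunB peak, or encode the muscle laminin and its receptor, or fibronectin. The members and the gene lists were chosen with earlier results of these data known.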

Additional observations from a re-analysis of the deposited data

How the results depend on the processing

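The counts of members moved with how many peaks were kept and with how they were linked to genes; where a value moved, the cause was not tested. Keeping the 2000 strongest peaks of each library left promoter peaks at 1 member in young replicate 1, 0 in young replicate 2, 2 in the aged library and 1 for H3K27ac (young mean 0.667), distal peaks at 7, 7, 7, 8 and 6 members in the usual order (young mean 7), and 1 member with an aged promoter peak alone. At 3863 peaks per JunB library the aged library had promoter peaks at 4 members and distal peaks at 11, with 1 member aged alone (Itgb6) and 1 young alone (Lama5). A −log10 q of at least 2 also gave 1 young alone. A promoter window of 1 kb gave 5 members in the aged library and 2 aged alone, and one of 5 kb gave 5 in young replicate 1 and 2 in young replicate 3. From the 5′ end of the gene, young replicate 3 had 0 promoter peaks and the young mean of distal peaks was 12. That mean was 11 within 20 kb (8 members in young replicate 2), 20.7 within 100 kb, 8.67 with the nearest TSS (12, 7 and 7 members), 10.7 without peaks at promoters of other genes (9 and 8 in young replicates 2 and 3) and 9 with H3K27ac required (11 and 7 members in young replicates 1 and 2, 15 in aged MuSCs). With the 20000 strongest H3K27ac peaks, 27.1% of the member regions overlapped one. With the motif sought within 100 bp of the summit, it stood in 26.1% of the member peaks of young replicate 2 and 12.8% of the aged ones. Leaving out each young library in turn gave 6 to 7 members with an aged promoter peak alone, 0 young alone, young means of 2 to 3.5 promoter and 13.5 to 16.5 distal members, and 37.9 to 38.6% of regions under H3K27ac. TGACGTCA stood within 50 bp of no JunB summit at the members and of 0.320% or fewer of all JunB peaks. No paired analysis was possible because the aged group has 1 library and the results come from no test.

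Depth behind a peak is unknown, the JunB lists were called at unlike thresholds, and there is 1 aged and 1 H3K27ac library, so a missing peak is not shown to be missing binding. A peak near a gene does not say which gene it acts on: 21 of the 83 distal regions lay at promoters of other genes.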
